A study of Mus musculus with 2 samples.

Results

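Egfr, the epidermal growth factor receptor gene, and the genes of its ligands amphiregulin (Areg) and transforming growth factor alpha (Tgfa) were each read by 1 probe of the array, so that 3 of 60930 probes are described here. The probes were matched by gene symbol in the copy used here of the study's sheet of mRNAs, which names 437 genes. That sheet was selected on the ratio between these same arrays, so that the 3 genes were chosen by their surgery over control values, and these are given as a description. Signals of all 3 probes were higher in the hippocampus after surgery, by 10.3-fold for Areg, 2.77-fold for Egfr and 2.53-fold for Tgfa. All 3 spots sat within the 14 columns nearest one edge of the array, called the last 14 columns below, where higher signals after surgery were more frequent than elsewhere. The spots touching each of them were also higher.

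The samples were hippocampi of male C57 mice (C57BL/6 in the study's methods) aged 16 to 18 months, taken on day 3 of a model of postoperative cognitive dysfunction. The surgery group had its left kidney removed under ketamine and xylazine, and the control group received no specific treatment, so that operation and anaesthesia cannot be told apart. The RNA of 3 mice was pooled in each group and hybridized to 1 one-colour array (Arraystar mouse lncRNA V3.0, Cy3 label). With 1 array per group in the data used here, there was no replicate check of any value and no test was run. The study's methods describe a repeat of the assay, which was not analysed here.

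The receptor encoded by Egfr is a tyrosine kinase of the ErbB family, which pairs with itself or with a related receptor when a ligand binds. Areg and Tgfa are made as precursors in the cell membrane and are released from it by the metalloprotease ADAM17. In the brain the receptor is best known from neural progenitors and from astrocytes responding to injury.

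The probes are shown because every value below is the signal of these sequences. They are printed as the study's sheet lists them, with no part capitalized.
Areg probe, whole: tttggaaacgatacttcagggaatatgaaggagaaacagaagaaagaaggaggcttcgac
Egfr probe, first 30 of its 60 bases: aaggatgtgaagtgtggccatctgggtacg
Tgfa probe, first 30 of its 60 bases: gacatgagaagcccagcgccctcctgaagg
The share of G and C was 41.7% in the Areg probe, 45.0% in the Egfr probe and 60.0% in the Tgfa probe. The study's sheet lists no cross-hybridization for any of the 3.

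The Egfr probe is listed at chr11:16887160-16887221 for the transcript NM_007912, which spans chr11:16752203-16887658 on the plus strand (GRCm38.p6). That transcript is 2678 bases long and ends 26249 bases before the end of the RefSeq gene, for which RefSeq holds 2 curated transcripts. The probe lies 437 bases, counted on the chromosome, before the end of this shorter transcript. Short Egfr transcripts are known to code for the outer part of the receptor without its kinase. Whether the probe also reads the longer transcript, which codes for the kinase, was not tested.

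The Areg probe is listed at chr5:91146639-91146746 for NM_009704, a transcript of 1199 bases. The listed span of 107 bases exceeds the length of the probe. The Tgfa probe is listed at chr6:86271429-86271489 for NM_031199, a transcript of 4229 bases that ends 295 bases before the RefSeq gene does. Both genes are on the plus strand, and RefSeq holds 1 curated transcript for each.

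The promoter of Areg is shown because it held sequence motifs that the other 2 did not. Its 250 bases before the start site, chr5:91139349-91139598 on the plus strand of GRCm38.p6 in RefSeq, carry in capitals the cyclic AMP response element TGACGTCA and the TATA box TATAAA.
Areg promoter: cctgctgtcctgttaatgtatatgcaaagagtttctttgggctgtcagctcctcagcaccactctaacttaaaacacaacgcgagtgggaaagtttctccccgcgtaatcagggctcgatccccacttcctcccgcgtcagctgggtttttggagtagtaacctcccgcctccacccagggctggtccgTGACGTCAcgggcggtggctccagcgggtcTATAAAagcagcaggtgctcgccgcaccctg
The response element began 61 bases and the TATA box 31 bases before the start site, and they do not overlap. On either strand, TGACGTCA was found in 588 of 32851 mouse promoter windows of 250 bases before to 50 bases after the start (1.79%) and TATAAA in 4473 (13.6%). Both were found in 56 windows (0.170%). The windows of Egfr and Tgfa held neither string, with a G and C share of 62.3% for Egfr and 70.7% for Tgfa, against 59.3% for Areg and a median of 52.7% over all windows. For Tgfa the bases before the start, chr6:86194972-86195221, include the start of the RefSeq gene at 86195038. They thus lie partly within that gene, and the sequence further upstream was not searched. A match of letters is not a measurement of binding.

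Areg encodes amphiregulin, a ligand of low affinity for the receptor. Its processed signal, which Agilent Feature Extraction had corrected for background, was 23.9 in control (spot error 4.18) and 223 after surgery (spot error 22.6), in the units of the scanner. The log2 ratio of surgery over control after quantile normalization was 3.36 (spot error 0.29), or 10.3-fold with a range of 8.38-fold to 12.5-fold for 1 spot error. This error covers the measurement of the spots and not differences between mice. Among the 44044 probes detected on both arrays, only 6 had a higher ratio than Areg, which ranked at 7.

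The raw brightness of the Areg spot changed less than its ratio. The median pixel of the spot was 70 in control and 248 after surgery, over a local background of 23 and 21. After quantile normalization its log2 ratio was 1.85 (3.60-fold), and it ranked at 23. On the control array the median pixel minus the local background still exceeded the processed signal by 23.1, against 3.66 on the surgery array. More was thus taken off the Areg spot beyond its local background in control than after surgery. The same held for the other 2 members, at 29.8 in control against 1.23 after surgery for Egfr and 20.3 against 6.93 for Tgfa.

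Tgfa encodes transforming growth factor alpha, a ligand made in many epithelia and also in brain. Its processed signal was 130 in control (spot error 13.5) and 294 after surgery (spot error 29.7). The log2 ratio was 1.34 (spot error 0.21), or 2.53-fold with a range of 2.19-fold to 2.93-fold, at rank 295. The raw median pixel was 170.5 in control and 323 after surgery, less than 2-fold higher before normalization. After quantile normalization its log2 ratio was 1.02 (2.03-fold). With normalization both ways of reading the spot placed Tgfa above 2-fold, the median pixel only just.

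The Egfr spot gave a processed signal of 93.7 in control (spot error 10.04) and 234 after surgery (spot error 23.8). The log2 ratio was 1.47 (spot error 0.21), or 2.77-fold with a range of 2.39-fold to 3.22-fold, at rank 237. Its raw median pixel was 142.5 in control and 257 after surgery. After quantile normalization the log2 ratio of the median pixel was 0.93 (1.90-fold). The receptor gene was thus above 2-fold in the processed signal and below it in the median pixel. Feature Extraction marked the local background around the Egfr spot as an outlier on the control array. The spots of Egfr, Areg and Tgfa themselves carried no mark on either array.

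**Figure D1:**
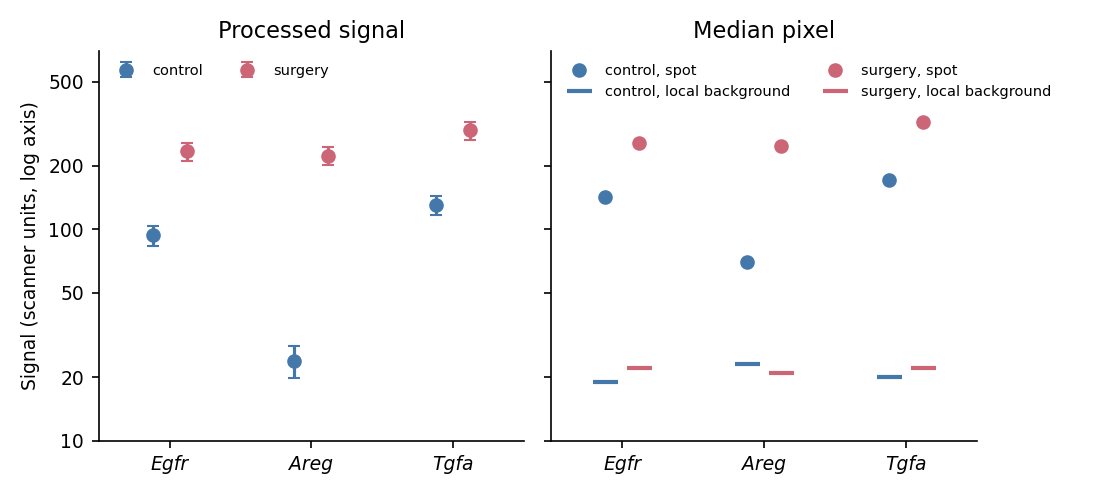
Signal of the Egfr, Areg and Tgfa spots in scanner units on a log axis, control against surgery, with 1 array per group. Bars through the processed signals are the spot errors of Feature Extraction, and the raw median pixel and the local background are drawn beside them. The processed signal of Areg in control, already corrected for background, is 23.9, and its median pixel is 70 over a local background of 23. The signals of all 3 spots after surgery lie above those in control.

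The ligands differed from each other more than the receptor differed from Tgfa. The log2 ratio of Areg exceeded that of Tgfa by 2.02 (combined spot error 0.36) and that of Egfr by 1.89 (combined spot error 0.36). Egfr exceeded Tgfa by 0.13 (combined spot error 0.30), less than the error of the spots. With raw median pixels, Areg exceeded Tgfa by 0.83, and Egfr was below Tgfa by 0.09. As a difference of processed signals rather than a ratio, the spots gained similar amounts: 199 for Areg, 164 for Tgfa and 140 for Egfr.

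Past 2-fold, 647 of the 44044 detected probes had more signal after surgery (1.47%) and 858 had less (1.95%). All 3 members were at least 2-fold higher, but they were chosen for this ratio, and nothing is read from their count. Over the detected probes the median log2 ratio was 0.04, the median spot error was 0.21, and 76.4% of spots in control and 73.8% after surgery were well above background. With quantile-normalized median pixels 210 probes were at least 2-fold higher (0.477%, and 2.95% in the last 14 columns), and 2 of the 3 members, Areg and Tgfa, were among them.

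Each member lay close to one edge of the array, which has 384 rows and 164 columns. Areg was at row 134 and column 161, Egfr at row 324 and column 163, and Tgfa at row 353 and column 156. In the last 14 columns, 327 of 3892 detected probes were at least 2-fold higher (8.4%), against 320 of 40152 in the columns before them (0.797%). Both arrays were read in 1 scan at different positions, so that array position and group cannot be told apart.

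Each column holding a member had a larger share of probes past 2-fold upward than any column before the last 14. In column 156, which holds Tgfa, 8.76% of probes passed 2-fold upward, in column 161 with Areg 8.27%, and in column 163 with Egfr 11.9%. Over the last 14 columns this share ranged from 3.36% to 22.6%, and the highest share of any earlier column was 3.62%. Within the last 14 columns Areg ranked at 4 of 3892 probes, Egfr at 170 and Tgfa at 205.

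**Figure D2:**
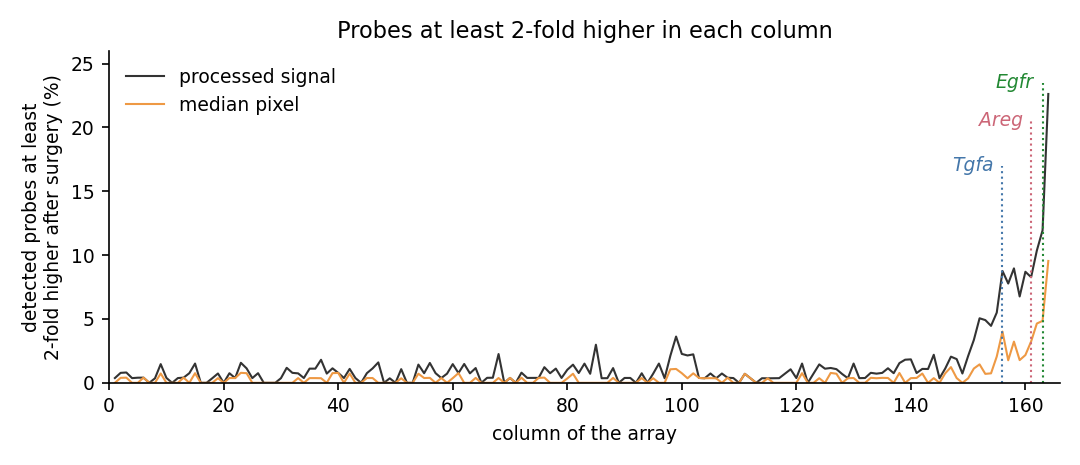
Share of detected probes at least 2-fold higher after surgery in each column of the array, in percent, from the processed signal and from the raw median pixel. The columns of the 3 members are marked. The share stays at or below 3.62% before the last 14 columns and reaches 22.6% within them.

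The shift was larger among dim probes. With the detected probes split into 4 groups of equal size by signal, Egfr, Areg and Tgfa all fell in the group next to the dimmest. In that group 13.4% of the probes of the last 14 columns were at least 2-fold higher, against 0.713% in the columns before. In the brightest group the shares were 0.649% and 0.258%. Among detected probes, ratios above 2-fold, as Egfr and Tgfa had, were thus frequent at this signal in these columns. Ratios as high as that of Areg were rare among them. Spots not well above background in control were left out of this comparison, and such spots reached log2 ratios of 3.71 next to Egfr and 3.23 next to Areg. The control signal of Areg was itself above only 2.62% of detected spots.

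Each member was set against the 8 spots within 1 row and 1 column of it. Of these 24 touching spots, all 24 had a log2 ratio above 0 and 13 were at least 2-fold higher. Among the 18 of them that were detected, 7 were at least 2-fold higher (38.9%). The raw median pixel, before normalization, was higher after surgery on 21 of the 24, and after normalization 1 of them was at least 2-fold higher.

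Areg stood above every spot that touched it. The log2 ratios of its 8 touching spots ranged from 0.65 to 3.23 with a median of 1.30, and 5 were at least 2-fold higher. The highest, at the lncRNA mouselincRNA0172, had a signal of 9.34 in control, which was not well above background, and 81.5 after surgery. The other named spots were the lncRNAs AK005751, with a log2 ratio of 1.27, and Gm16394, with 1.39. Areg exceeded the median of its touching spots by 2.05 on the log2 scale (4.15-fold), and by 1.21 with raw median pixels, where the touching spots ranged from 0.34 to 0.92.

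Egfr exceeded most of its touching spots. Their log2 ratios ranged from 0.05 to 3.71 with a median of 0.49, and 2 of the 8 were higher than Egfr. One of these was the lncRNA Gm15941, whose signal was 26.7 in control and 82.0 after surgery, a log2 ratio of 1.74. The other has no name here and was not well above background in control, with a signal of 6.97 against 86.7. Egfr exceeded the median by 0.98 on the log2 scale (1.97-fold), and by 0.60 with raw median pixels, where 1 touching spot was higher.

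Tgfa was below most of its touching spots in the processed signal. Their log2 ratios ranged from 0.50 to 3.00 with a median of 2.11, 6 of the 8 were higher than Tgfa, and Tgfa minus the median was -0.77 on the log2 scale. Among the 6 were the lncRNAs Gm26884, with a log2 ratio of 2.80, and mouselincRNA0451, with 3.00, and the mRNA Gm581, with 1.42. However, 4 of the 8 touching spots were not well above background in control, with signals of 3.65 to 17.5 there. With raw median pixels none of the 8 was higher than Tgfa, which exceeded their median by 0.32, so that the direction of this comparison depended on the background correction.

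**Figure D3:**
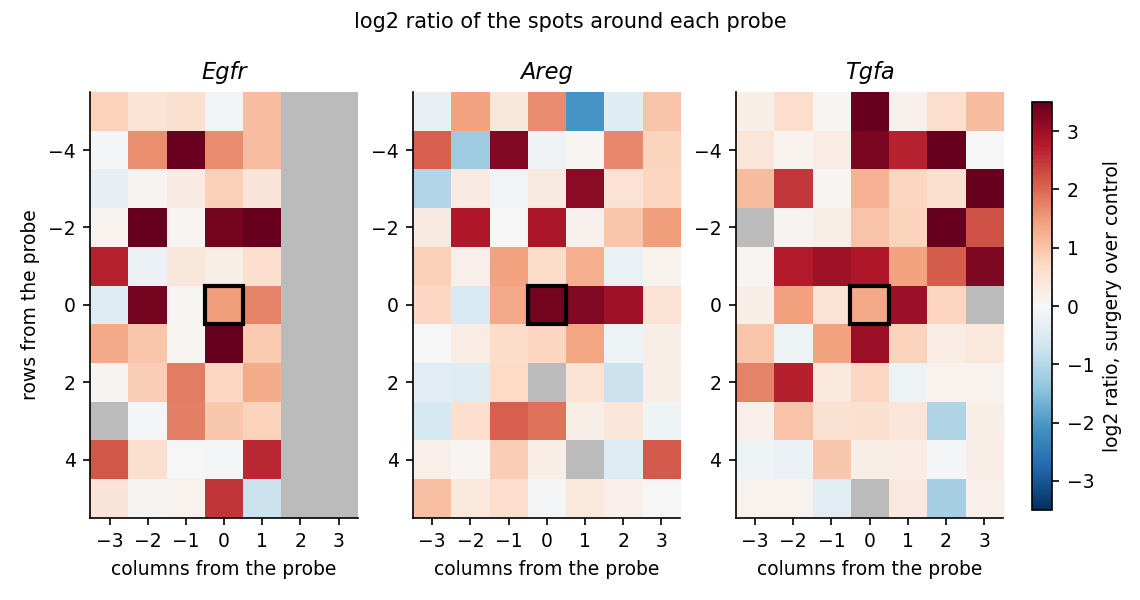
Log2 ratio of surgery over control on the spots around Areg, Egfr and Tgfa, by distance from the member in rows and columns, with the member in the centre. Red is higher after surgery, grey marks places with no probe spot or beyond the edge of the array, and the scale is clipped at its ends. All 8 spots touching each member are above 0, and 6 of the 8 touching Tgfa, with a median of 2.11 over the 8, are higher than Tgfa itself at 1.34.

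Differences of signal, which do not depend on a small denominator, gave another order. The processed signal of Areg gained 199 against a median gain of 66.5 over its touching spots, of which 1 bright spot gained more. Tgfa gained 164 against a median of 79.6, with 1 touching spot above it, and Egfr gained 140 against a median of 41.0, with 1 touching spot above it. In this unit all 3 members gained more than 7 of the 8 spots around them.

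Negative-control spots, which carry sequences that no mouse transcript should bind, were read in the same columns. In the last 14 columns 27 such spots had a median raw pixel of 41 in control and 50 after surgery, and 26 of them were higher after surgery. Their raw gain ranged from 0 to 45.5 with a median of 7, against a median of 3.5 over the 281 negative-control spots elsewhere. The raw gain was 178 for Areg, 152.5 for Tgfa and 114.5 for Egfr, which is 3.91, 3.35 and 2.52 times the highest gain of a negative control in those columns. Of the 24 spots touching the members, 14 also gained more than that negative control.

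**Figure D4:**
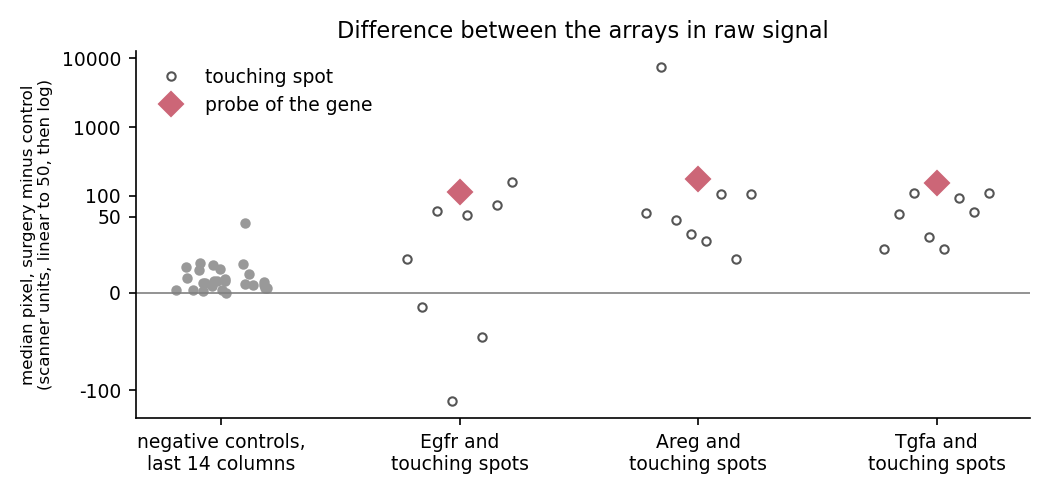
Gain in raw median pixel from control to surgery, in scanner units, for the negative-control spots of the last 14 columns, for the spots touching the members and for Egfr, Areg and Tgfa, on an axis that is linear near 0 and logarithmic beyond. The members gained 114.5 to 178, and no negative-control spot gained more than 45.5.

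With the median of those negative controls taken off each array as background, the log2 ratio was 2.77 for Areg (29 in control and 198 after surgery), 1.08 for Tgfa (129.5 and 273) and 1.03 for Egfr (101.5 and 207). By this reading all 3 spots were above 2-fold, Egfr by the least at 2.04-fold. With the normexp background correction, the log2 ratios were 1.64 for Areg, 0.93 for Tgfa and 0.82 for Egfr. Areg alone was then above 2-fold, against 0.395% of all detected probes and 2.36% of those in the last 14 columns. Normexp was run with an offset of 50 added to each signal, which by itself lowers the ratios of dim spots. The share of the offset in these values was not tested. Areg was above 2-fold in each of the settings tried, while the call of Egfr and Tgfa depended on the background correction, with its offset in normexp.

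**Figure D5:**
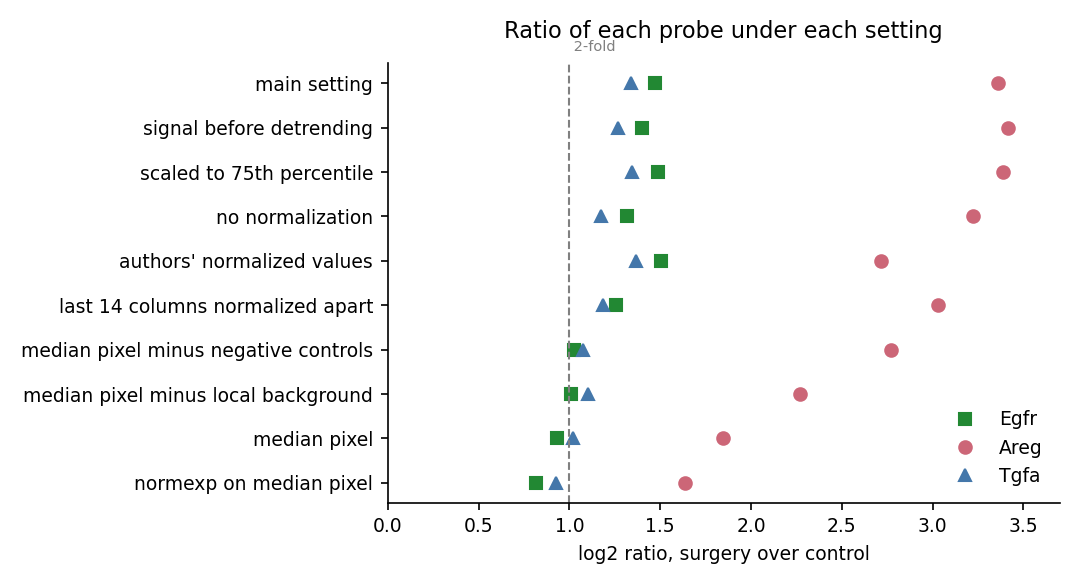
Log2 ratio of surgery over control for Egfr, Areg and Tgfa under each way of correcting the background and of normalizing, with the 2-fold line. Areg runs from 1.64 to 3.42, and Egfr and Tgfa cross the 2-fold line.

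Other genes of the ErbB pathway could be found only where the study's sheet names a probe. Of 84 genes listed for the pathway, 5 had one: 1 of 4 receptors (Egfr), 2 of 11 ligands (Areg and Tgfa), 0 of 4 genes for ligand release, 2 of 51 adaptors and kinases, and 0 of 14 feedback and response genes. The sheet holds genes selected for change in these arrays, so that 4 of the 5 at least 2-fold higher and 1 lower is no measure of the pathway. The median log2 ratio of the 5 was 1.35 against 0.04 over all detected probes. Receptors and ligands such as Erbb2, Erbb4, Egf and Hbegf were not analysed here.

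Camk2a encodes a calcium-dependent kinase of excitatory neurons, and its signal was 48.5 in control and 111 after surgery, a log2 ratio of 1.35 (spot error 0.24). Its spot, in column 148, is outside the last 14 columns, its raw log2 ratio was 0.70, and it exceeded the median of its touching spots by 0.75. Of its 8 touching spots, 3 were at least 2-fold higher and 2 exceeded Camk2a, none of them detected on both arrays. Within 5 rows and 2 columns of it, 14 of 54 spots were at least 2-fold higher (25.9%). Camk2a thus also lay among spots with higher ratios. Crk encodes an adaptor that joins phosphorylated receptors to downstream kinases, and its signal was 834 in control and 325 after surgery, a log2 ratio of -1.19 (spot error 0.20). Crk lies in column 118, where none of its 8 touching spots differed by 2-fold, and its raw log2 ratio of -1.09 was close to the processed one. Of the 5 pathway genes with a probe, Crk had the smallest difference between the processed and the raw ratio.

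Markers of other tissue moved between the same arrays. Of 16 genes typical of meninges and arachnoid, 14 had a named probe and 13 were detected. All 13 passed 2-fold upward, with log2 ratios from 1.01 to 3.29, against 1.47% of all detected probes. These probes were named through the same sheet selected for change, which fixed that they would pass, so nothing is read from their count. The summed signal of all 14 named probes, detected or not, was 53796 in control and 130920 after surgery, and 3 of them lie in the last 14 columns. Of 7 genes of choroid plexus only Clic6 had a named probe, with a signal of 1063 in control and 368 after surgery (log2 ratio -1.38). The part of these tissues in the values of Egfr, Areg and Tgfa was not tested. In such pooled tissue, fewer cells of a type and less RNA per cell cannot be told apart.

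The hippocampal origin of the tissue could not be checked here, since Camk2a alone of 6 neuronal markers had a named probe and the sheet was selected for change. Markers of astrocytes, microglia, endothelium, neutrophils and red blood cells had no named probe in the shortened copy of the sheet and were not analysed here. The study itself lists the neutrophil gene S100a8 among its most down-regulated mRNAs, and Lcn2 and the chemokine gene Cxcl2 among its most up-regulated ones. Nothing is read here about neutrophils.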

How the data were processed

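RNA of 3 hippocampi per group was pooled and hybridized to 1 array per group, grouped by the sample labels as control or surgery. The deposited intensities came from Agilent Feature Extraction 11.0.1.1, per the file headers, which had subtracted background and detrended each array. A table of log2 values, quantile normalized by the authors in GeneSpring GX, was used as an alternative, and 0 of its columns had no sample. Its values correlated with the log2 processed signals at r = 0.981 in control and 0.986 in surgery over 60804 probes, with column medians of 4.78.

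From the processed signals of 61500 non-control spots, log2 values were quantile normalized between the arrays. Log2 ratios called raw were taken from median pixels after the same normalization. Gains in signal or median pixel, and ratios with negative controls as background, were not normalized. Spots marked as non-uniform or as population outliers were left out (50 probes), and 44044 probes counted as detected, that is positive, significant and well above background in control and in surgery. Changes of 2-fold were counted without a test, since 1 array per group allows none. Spot errors cover the spots alone, and precision is limited by the number of arrays. The script that counts probes past 2-fold was checked on simulated data with known changes.

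Probe names came from the study's sheet of mRNAs, in a shortened copy of 446 rows, and its sheet of lncRNAs, of 866 rows. Named genes are the members, all genes of fixed ErbB lists with a named probe, and named genes on touching spots. The members and lists were chosen with earlier results of these data known. Promoters are those of RefSeq (GRCm38.p6), where all 3 genes matched by symbol and chromosome. Marker genes were listed in the same way. Calculations ran in Python 3.11.15 (numpy 2.4.6 and pandas 2.3.3, figures by matplotlib 3.10.9), and normexp with an offset of 50 in limma 3.58.1 under R 4.3.3. The result of 1 further marker list is not reported here.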

Additional observations from a re-analysis of the deposited data

How the results depend on the processing

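The direction of Egfr, Areg and Tgfa was the same in every setting tried, and the size was not. The log2 ratio of Egfr was 1.26 with normalization within regions of the array, 0.93 with raw median pixels, 1.01 with median pixels minus local background, 0.82 with normexp and 1.03 with negative controls as background. For Areg these were 3.03, 1.85, 2.27, 1.64 and 2.77, and 2.72 in the authors' table. For Tgfa the median pixel gave 1.02, minus local background 1.103, normexp 0.93 and negative controls 1.08. No normalization, the 75th percentile and the signal before detrending moved each of the 3 by less than its spot error. The signal before detrending had already passed the background subtraction of Feature Extraction, so it does not show the ratios without that subtraction.

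The number of members past 2-fold was 3, against 2 with median pixels and 1 with normexp, and that of the 5 ErbB genes higher was 4, against 2 with median pixels and 1 with normexp. Over the array, 647 probes were at least 2-fold higher, against 210 with median pixels, 295 with these minus local background, 174 with normexp, 2384 with no filter on dim probes and 130 with the dimmer part left out. Against neighbouring spots, Egfr exceeded the median by 0.65 with the 6 nearest spots, 0.68 with a window of 5 rows and 2 columns on either side and 0.60 with median pixels. Areg exceeded it by 2.35, 2.95 and 1.21. Tgfa, at -0.77 against its touching spots, turned to 0.72 with the window, 0.32 with median pixels and 0.24 with dim spots left out. The cause was not tested.

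Normexp on mean pixels was not run because the files used here give median pixels. Normexp on median pixels and the negative controls were chosen after seeing the data. No paired analysis was possible because each group has 1 array. Signal over background limits Areg in control most.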
